A study of Mus musculus with 12 samples.

Results

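This account covers 9 genes that p53 is known to activate in metabolism and in relief from stress, listed as SESN1, SESN2, TIGAR, RRM2B, FDXR, PRKAB1, DDIT4, DCXR and FOXO3. They were picked by symbol from 16425 genes in the deposited expression table, with earlier results of these data known. All 9 passed the filter on low values. They are written below in mouse style. RNA came from wild-type mouse embryonic fibroblasts (MEFs), connective tissue cells in culture, infected with a guide RNA. The guide either addressed the p53 response element of Pvt1 (cells called sg10 in the labels and sgPVT1 in the table, and here sgPVT1) or was a non-targeting control (sgTom). All cells in the table were kept for 24 h in 0.5 µM doxorubicin, a topoisomerase poison that breaks DNA and sets off the p53 response, and each guide had 3 libraries. The series also holds 6 untreated samples, not analysed here, so the values below show levels under DNA damage and not the response to it. Whether the cells were clones or a mixed population, and how much of the element was altered, are not given in the sources used here.

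p53 is a transcription factor that is best known for halting the cell cycle and for cell death. Other p53 targets let a damaged cell spend less and repair more: they slow growth signalling through mTORC1, turn glucose toward NADPH, pass electrons to mitochondrial enzymes and supply deoxynucleotides for repair. Several of them also answer to signals other than p53, such as hypoxia, amino acid shortage or glucocorticoids. The guide was aimed at a p53 site in a long noncoding RNA gene beside Myc, so the question for these 9 genes is whether their level under damage differed between cells with the sgPVT1 guide and cells with the control guide.

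None of the 9 genes passed the test for a difference between the guides at an adjusted p of 0.05. Their log2 fold changes, sgPVT1 over sgTom on log2(CPM + 0.5), ran from -0.11 for Rrm2b to 0.07 for Sesn1, where CPM are read counts scaled to a common library size. Replicate number held a median of 71.6% of a gene's variance among libraries and the guide 22.2%, though replicate number has more degrees of freedom. Sesn2, Ddit4, Dcxr and Fdxr, or 44.4% of the 9, differed between replicate numbers in a fit with guide and number. Among all tested genes 48.6% did. Foxo3 was the steadiest of the 9. Expressed per kb of exon, Dcxr was the most abundant of the 9, and Rrm2b and Sesn1, whose ranges overlapped, the least.

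The 6 libraries held 50091418 to 66132317 reads in genes. The targeted gene, Pvt1, had 8.04, 5.93 and 5.40 CPM in sgPVT1 cells (replicates 1 to 3), against 16.4, 11.7 and 12.1 CPM in sgTom cells, with no overlap. Its log2 fold change was -0.999 (SE 0.19). The limma adjusted p for Pvt1 was 1.0 without replicate number in the fit and 0.00014 with it as a block. Myc, its neighbour, had 43.5, 48.6 and 53.8 CPM in sgPVT1 cells and 28.7, 27.0 and 35.6 CPM in sgTom cells, a log2 fold change of 0.67 (SE 0.13) with limma adjusted p of 1.0 and, with the block, 0.000549. Both calls with the block were lost by limma without trend, at adjusted p of 0.239 for Pvt1 and 0.794 for Myc. The 14 fibroblast markers listed summed to between 39247 and 40375 CPM in sgPVT1 libraries and between 40452 and 40889 CPM in sgTom libraries. Most of that sum came from Fn1, Col1a1 and Vim, and Pdgfra was far lower. Fn1, which encodes fibronectin, averaged 20550 ± 1163 CPM in sgPVT1 cells and 21483 ± 1488 CPM in sgTom cells, Col1a1 7862 ± 856 and 7957 ± 1091 CPM, and Vim 4856 ± 347 and 4850 ± 336 CPM (SD, n = 3 each). Pdgfra, with the smallest p of that list without the block, averaged 30.4 ± 0.94 and 36.3 ± 3.82 CPM (limma adjusted p with the block 0.538). Its groups did not overlap, as in 3.61% of all tested genes. S100a4 was the 1 fibroblast marker called with the block, and was picked for mention after its values were seen. It averaged 155 ± 19.1 CPM in sgPVT1 cells and 193 ± 30.6 CPM in sgTom cells, a log2 fold change of -0.31 (limma adjusted p = 1.0 and, blocked, 0.0107). The S100a4 groups overlapped, and this call too was lost by limma without trend. In bulk RNA, fewer cells of a type and less RNA per cell cannot be told apart.

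Across the 14440 genes tested by limma, 0% were called at an adjusted p under 0.05 without the block and 0.0346% with replicate number as a block, and 0 of the 9 genes were called in either fit. Without the block, 50 genes had an unadjusted p under 0.05, 47 by edgeR and 46 by DESeq2, and none of these were among the 9; DESeq2 called 1 gene of all and edgeR 0. The block matters here because libraries with the same number deviated together. Taken gene by gene and as folds, the 95% intervals of the 9 reached from 0.746 to 1.30 without the block, both ends from Fdxr. With the block they reached from 0.863 (Rrm2b) to 1.16 (Sesn1). These intervals are not adjusted for the number of genes and set no joint bound. The authors' deposited table gave the 9 genes log2 fold changes of -0.11 to 0.08, p-values of 0.478 to 0.961 and a false discovery rate of 1.

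**Figure D1:**
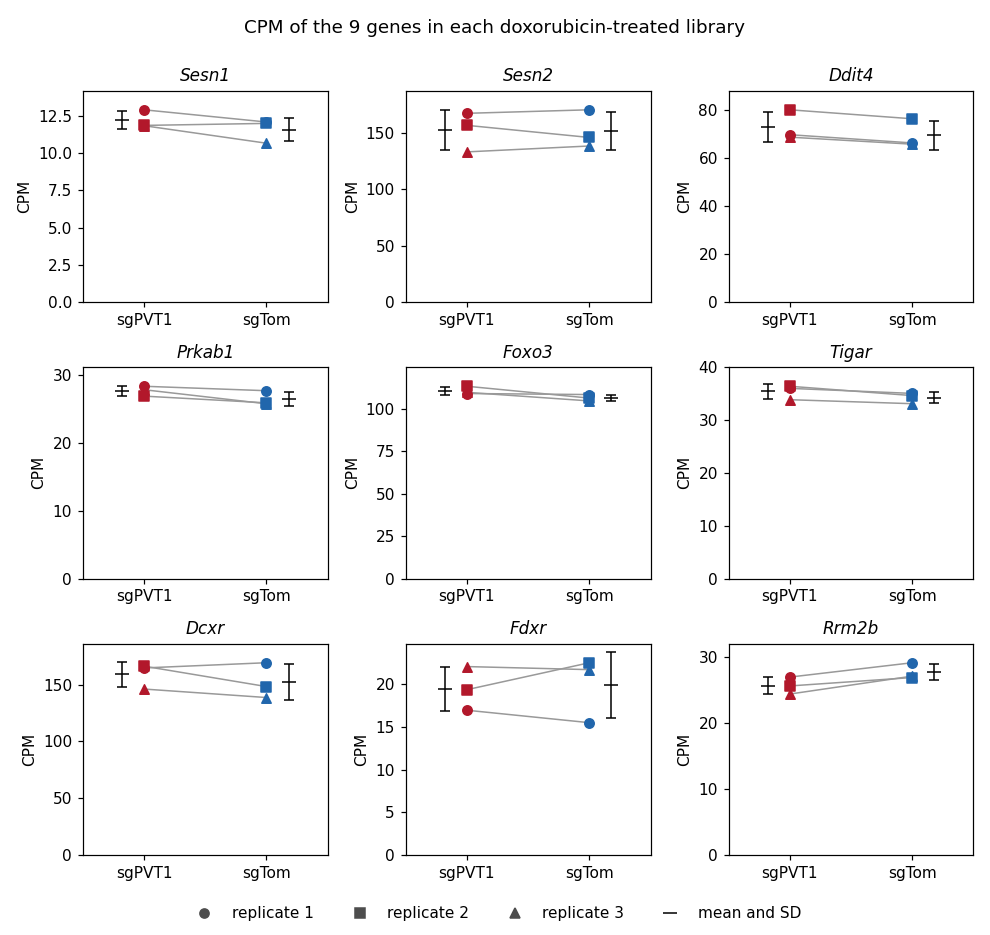
CPM of each of the 9 genes (vertical axes, from 0) in the 3 sgPVT1 libraries (red, left) and the 3 sgTom libraries (blue, right) under doxorubicin. Symbols mark the replicate number, grey lines join libraries of equal number, and black bars give the mean and SD. The symbols lie in the same vertical order under both guides for Ddit4, whose replicate 2 is highest, while all 3 Foxo3 values of sgPVT1 cells lie above those of sgTom cells.

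The sestrins Sesn1 and Sesn2 restrain mTORC1, the kinase complex that drives growth, by holding back its activator GATOR2, and Sesn2 senses leucine. Sesn1 lies at chr10:41809935-41908424 on the plus strand (mm10, GENCODE M21) and starts at more than 1 place. RefSeq gives promoter windows of 300 bases (250 before and 50 after the start, GRCm38.p6) for 8 of the 9 genes, 9 windows in all, with 2 for Sesn1 that lie 76.9 kb apart. The window at the second start of Sesn1 was the only 1 of the 9 with an exact p53 half-site, the element 10 bases long that binds a pair of p53 subunits (its consensus in purines, pyrimidines and A or T, with no mismatch, searched on both strands). It starts 173 bases before the transcription start. The 250 bases before that start, which hold no annotated exon, are shown with the match in capitals, beside the same stretch of Dcxr, the most abundant of the 9 per kb, in which no match was found.
Sesn1, second start, chr10:41887189-41887438, plus strand: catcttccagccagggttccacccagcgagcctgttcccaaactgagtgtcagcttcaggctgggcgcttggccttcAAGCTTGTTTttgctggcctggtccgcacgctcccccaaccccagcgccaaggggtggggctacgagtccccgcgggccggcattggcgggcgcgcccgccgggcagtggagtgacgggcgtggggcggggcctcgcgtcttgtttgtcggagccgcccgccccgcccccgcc
Dcxr, chr11:120727285-120727534, minus strand: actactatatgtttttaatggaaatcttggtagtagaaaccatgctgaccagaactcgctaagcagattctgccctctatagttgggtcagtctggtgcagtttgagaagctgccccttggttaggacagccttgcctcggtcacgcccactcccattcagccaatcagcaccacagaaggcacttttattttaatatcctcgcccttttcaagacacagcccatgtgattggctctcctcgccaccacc
Of all 32851 RefSeq promoter windows of this length, 8.36% hold the half-site. CACGTG, the E-box that Myc binds, is in 7.15% of all windows and in 0 of the 9, and TGATGNAA, the core of the element that Atf4 binds, is in 3.97% of all and in 0 of the 9. These are matches of letters, and sites beyond the windows were not searched. GC content of the 9 windows ran from 50.7% in Dcxr to 75.0% in Foxo3, with 71.0% at the second Sesn1 start.

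Sesn1 had 12.9, 11.9 and 11.8 CPM in sgPVT1 cells and 12.1, 12.0 and 10.7 CPM in sgTom cells. The groups overlapped, and sgPVT1 was higher in 2 of 3 pairs. Its log2 fold change was 0.07 (SE 0.09, limma adjusted p = 1.0 and, blocked, 0.862). It is the least read of the 9, at 662 to 861 reads per library, so that counting alone gives an error of up to 3.89%. Sesn2 (chr4:132492032-132510501, minus strand) was read more often, with 167, 157 and 133 CPM in sgPVT1 cells and 170, 146 and 138 CPM in sgTom cells. Replicate 1 was highest and replicate 3 lowest under both guides, and the guides differed by a log2 fold change of only 0.01 (SE 0.12, limma adjusted p = 1.0 and, blocked, 0.986). The exact tests of CPM gave p = 0.6 for Sesn1 and p = 1 for Sesn2 by permutation of 3 against 3 libraries, where 0.1 is the smallest possible (two-sided). Sesn3, the third sestrin and a FoxO target, ranged more widely: 69.5, 139 and 117 CPM in sgPVT1 cells and 77.2, 130 and 114 CPM in sgTom cells. Its replicate numbers differed by a factor of 1.83 (limma F test, adjusted p = 2.85e-06), with replicate 1 lowest, where Sesn2 was highest.

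Ddit4, also called REDD1, releases the TSC complex to switch off mTORC1 and is known for its response to hypoxia, glucocorticoids and Atf4 as well as p53. It lies at chr10:59949669-59951834 on the minus strand. Its level was 69.8, 80.2 and 68.8 CPM in sgPVT1 cells and 66.4, 76.4 and 65.8 CPM in sgTom cells. Replicate 2 was highest under both guides, and within each number the sgPVT1 library was higher by a ratio of 1.05, 1.05 and 1.04. The groups overlapped, and the log2 fold change of 0.07 had an SE of 0.09 without the block and 0.03 with it (limma adjusted p = 1.0 and 0.742). The exact sign flip over pairs gave p = 0.25, the smallest that 3 pairs allow (two-sided). Its relative Ddit4l, an mTORC1 inhibitor too, averaged 107 ± 9.76 CPM in sgPVT1 cells and 114 ± 10.4 CPM in sgTom cells (SD, n = 3 each), and was lower with sgPVT1 in all 3 pairs, with a log2 fold change of -0.09 (limma blocked adjusted p = 0.684).

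Prkab1 encodes the β1 subunit of AMPK, the kinase that senses low energy, and holds the catalytic and γ subunits together (chr5:116013586-116024508, minus strand). It had 28.4, 26.9 and 27.9 CPM in sgPVT1 cells and 27.7, 25.9 and 25.8 CPM in sgTom cells. The sgPVT1 library was higher in all 3 pairs, by ratios of 1.02 to 1.08, and the groups still overlapped. The log2 fold change was 0.07 (SE 0.06, limma adjusted p = 1.0 and, blocked, 0.820). The other β subunit gene, Prkab2, was read less: 12.4 ± 1.02 CPM in sgPVT1 cells and 12.7 ± 0.0845 CPM in sgTom cells (SD, n = 3 each). Among the catalytic subunits, Prkaa1 averaged 60.7 ± 2.17 CPM in sgPVT1 cells and 62.2 ± 0.437 CPM in sgTom cells, and Prkaa2 averaged 39.97 ± 8.62 and 39.9 ± 7.26 CPM. The γ subunit genes gave 72.8 ± 3.63 and 73.0 ± 3.28 CPM for Prkag1 and 21.9 ± 2.97 and 22.9 ± 4.68 CPM for Prkag2, in the same order of guides. By replicate number, 3 of these 6 AMPK genes passed the F test, close to the 48.6% of all tested genes. Prkab1 (limma F test, adjusted p = 0.420), Prkab2 (0.462) and Prkaa1 (0.522) did not pass, whereas Prkaa2 (6.83e-05), Prkag2 (0.000501) and Prkag1 (0.0458) did.

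Foxo3 is a forkhead transcription factor that Akt keeps out of the nucleus and that turns on antioxidant, autophagy and arrest genes (chr10:42181841-42276755, minus strand). Its level was 109.0, 113 and 109.7 CPM in sgPVT1 cells and 108, 106 and 105 CPM in sgTom cells. This was the only 1 of the 9 whose groups did not overlap, 11.1% of the members against 3.61% of all tested genes, and its ratio within pairs was 1.01 to 1.07. Mean levels were 110.7 ± 2.30 CPM in sgPVT1 cells and 106 ± 1.88 CPM in sgTom cells (SD, n = 3 each). The log2 fold change was 0.06 (SE 0.05, limma adjusted p = 1.0 and, blocked, 0.784), and the exact permutation p of 0.1 is the smallest the design gives. Over the 6 libraries its coefficient of variation was 2.74%, the lowest of the 9. Foxo1 averaged 40.1 ± 3.27 CPM in sgPVT1 cells and 39.4 ± 5.47 CPM in sgTom cells, Foxo4 12.9 ± 0.386 and 13.3 ± 1.48 CPM, and Foxo6 6.85 ± 1.15 and 6.97 ± 0.957 CPM (SD, n = 3 each). Their log2 fold changes were 0.03, -0.04 and -0.03.

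Tigar removes the phosphate of fructose-2,6-bisphosphate, which slows glycolysis and leaves glucose for the pentose phosphate pathway and NADPH (chr6:127085116-127109557, minus strand). It had 36.0, 36.4 and 33.8 CPM in sgPVT1 cells and 35.0, 34.6 and 33.1 CPM in sgTom cells. Replicate 3 was lowest under both guides, and sgPVT1 was higher in all 3 pairs by ratios of 1.02 to 1.05, with overlapping groups. The log2 fold change was 0.05 (SE 0.06, limma adjusted p = 1.0 and, blocked, 0.862). The enzymes that both make and remove the same sugar phosphate did not pass the test either. Pfkfb3 averaged 34.7 ± 3.92 CPM in sgPVT1 cells and 33.7 ± 6.72 CPM in sgTom cells, Pfkfb2 13.2 ± 1.41 and 12.7 ± 1.96 CPM, Pfkfb4 6.89 ± 0.919 and 7.56 ± 0.939 CPM, and Pfkfb1 1.71 ± 0.373 and 1.46 ± 0.343 CPM (SD, n = 3 each). Their lowest adjusted p with the block was 0.773, for Pfkfb4 (limma).

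Dcxr, the dicarbonyl and L-xylulose reductase, uses NADPH to reduce reactive dicarbonyls and a sugar of the uronate cycle (chr11:120725399-120727281, minus strand). Its level was 165, 166 and 146 CPM in sgPVT1 cells and 169, 148 and 139 CPM in sgTom cells. Replicate 3 was lowest under both guides, while replicate 2 parted the guides most, with a ratio of 1.12. The groups overlapped, and the log2 fold change was 0.07 (SE 0.09, limma adjusted p = 1.0 and, blocked, 0.778). The reductases Akr1a1, at 614 ± 41.6 CPM in sgPVT1 cells and 619 ± 37.6 CPM in sgTom cells, and Akr1b3, at 189 ± 22.6 and 192 ± 26.2 CPM, had log2 fold changes of -0.01 each (SD, n = 3 each). Xylb, the xylulokinase that phosphorylates the D-xylulose at the end of this cycle, had the smallest unadjusted p of the relatives in the fit without the block, with 4.23 ± 0.625 CPM in sgPVT1 cells and 3.68 ± 0.365 CPM in sgTom cells and a log2 fold change of 0.17 (SE 0.14, limma adjusted p with the block 0.758).

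Fdxr is the mitochondrial ferredoxin reductase, which hands electrons from NADPH to ferredoxins for P450 enzymes and iron-sulfur clusters (chr11:115268024-115277050, minus strand). It varied the most of the 9, at 16.95, 19.4 and 22.1 CPM in sgPVT1 cells and 15.5, 22.5 and 21.7 CPM in sgTom cells, a coefficient of variation of 14.9% over 6 libraries. Replicate 1 was lowest under both guides. The sgPVT1 library was higher in pairs 1 and 3 and lower in pair 2 (ratio 0.860), and the log2 fold change was -0.02 (SE 0.17, limma adjusted p = 1.0 and, blocked, 0.969). The 2 ferredoxins were steadier: Fdx1 averaged 8.66 ± 0.234 CPM in sgPVT1 cells and 8.71 ± 0.149 CPM in sgTom cells, and Fdx2 averaged 20.1 ± 1.11 and 19.4 ± 1.55 CPM (SD, n = 3 each). Neither passed the test of replicate number (limma F test, adjusted p = 0.928 for Fdx1 and 0.0813 for Fdx2).

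Rrm2b encodes p53R2, the small subunit of ribonucleotide reductase that makes deoxynucleotides outside S phase, for repair and for mitochondrial DNA (chr15:37923952-37961318, minus strand). It was the only 1 of the 9 lower with sgPVT1 in all 3 pairs, at 26.9, 25.6 and 24.3 CPM in sgPVT1 cells against 29.1, 26.8 and 27.0 CPM in sgTom cells. The groups overlapped at 1 point, since sgPVT1 replicate 1 lay above sgTom replicate 2. Mean levels were 25.6 ± 1.28 CPM in sgPVT1 cells and 27.6 ± 1.23 CPM in sgTom cells (SD, n = 3 each). The log2 fold change was -0.11 (SE 0.07, limma adjusted p = 1.0), and with the block the unadjusted p was 0.0394 and the adjusted p 0.738. Of all tested genes 6.68% had an unadjusted p under 0.05 in that fit, against 1 of the 9, or 11.1%. The S-phase small subunit Rrm2 averaged 109.8 ± 10.9 CPM in sgPVT1 cells and 115 ± 4.47 CPM in sgTom cells, a log2 fold change of -0.07, and the shared large subunit Rrm1 averaged 25.6 ± 1.19 and 26.0 ± 0.44 CPM, a log2 fold change of -0.02 (SD, n = 3 each). Reads of Rrm2b can be shared with a processed pseudogene inside it, Gm3362, which the table lists apart, and those of Sesn2 with the overlapping Gm12981. Antisense genes overlap Prkab1, Tigar and Rrm2b, and the strand setting of the counting is not given in the sources used here.

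**Figure D2:**
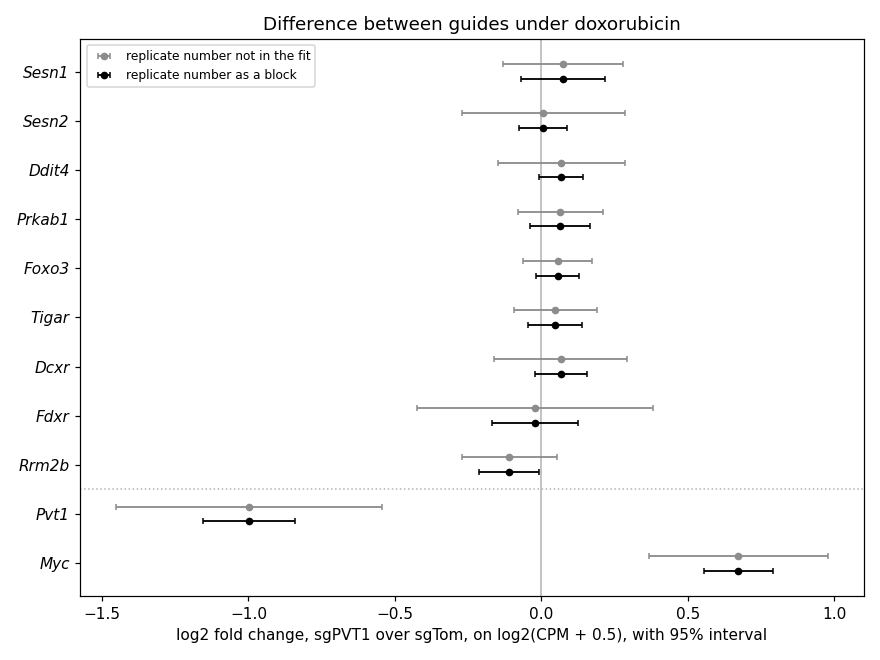
Log2 fold change, sgPVT1 over sgTom, on log2(CPM + 0.5) (horizontal axis) with 95% intervals from limma, without replicate number in the fit (grey) and with it as a block (black), for the 9 genes and, below the dotted line, Pvt1 and Myc. All 9 grey intervals include 0, and of the 9 black ones that of Rrm2b alone does not, while those of Pvt1 and Myc lie away from 0 in both fits.

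Read as a group, 7 of the 9 genes lay above 0 and 2 below, with a median log2 fold change of 0.06. That median was 0.023 without sgTom replicate 3 and 0.027 without sgPVT1 replicate 2. Among all tested genes 49.7% lay above 0 and the median was -0.000399. In all, 5 of 9 had the same direction in all 3 pairs (4 higher with sgPVT1, Ddit4, Prkab1, Foxo3 and Tigar, and 1 lower, Rrm2b), or 55.6%, against 28.8% of all tested genes. These are counts over genes that share libraries and were chosen with earlier results of these data known. No gene among the 5 passed the test. The 36 other p53 targets had 18 above and 18 below 0 and a median of -0.000501. Cdkn1a, the p21 gene of p53-driven arrest, averaged 1395 ± 165 CPM in sgPVT1 cells and 1334 ± 134 CPM in sgTom cells, and Mdm2, which marks p53 for breakdown, averaged 607 ± 77.8 and 584 ± 54.2 CPM (SD, n = 3 each). Trp53 itself averaged 171 ± 4.37 CPM in sgPVT1 cells and 160 ± 16.6 CPM in sgTom cells. Ccng1 averaged 1482 ± 145 and 1551 ± 178 CPM in that order, Sulf2 669 ± 74.0 and 670.3 ± 83.0 CPM, and the BH3-only gene Pmaip1, with the smallest p of that list in both fits, 428 ± 47.3 and 474 ± 54.6 CPM. None of the 36 passed the limma test with the block (lowest adjusted p = 0.557, for Pmaip1).

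The share of the variance among libraries was larger for replicate number than for the guide in 7 of the 9 genes. Replicate number has 2 degrees of freedom and the guide fewer, which alone favours replicate number. In Prkab1 the shares were close, at 49.4% and 40.6%. The median share over the 9 genes was 71.6% for replicate number and 22.2% for the guide, and over all tested genes 80.5% and 3.94%. Foxo3 and Rrm2b were exceptions, where the guide held 60.4% and 50.2% and replicate number 15.7% and 45.3%. In the limma F test, 48.6% of all tested genes differed between replicate numbers, and 4 of the 9 did, or 44.4%: Sesn2 (adjusted p = 0.000521), Ddit4 (0.0018), Fdxr (0.00267) and Dcxr (0.00736). Of the 36 other p53 targets, 34 passed this F test, or 94.4%. The highest and lowest replicate number differed by a factor of 1.34 in Fdxr, 1.24 in Sesn2, 1.17 in Dcxr and 1.16 in Ddit4, each averaged over guides. The order was not shared. Sesn2 and Dcxr were highest in replicate 1 and lowest in replicate 3, Ddit4 peaked in replicate 2, and Fdxr was lowest in replicate 1. Foxo3 differed least between numbers, by a factor of 1.02. Sesn2 passed in each of the 11 other settings tried as well, whereas each of the remaining 3 was lost without 1 replicate pair. The adjusted p was 0.567 for Fdxr without replicate 1, 0.775 for Ddit4 without replicate 2, and 0.238 for Dcxr without replicate 3.

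**Figure D3:**
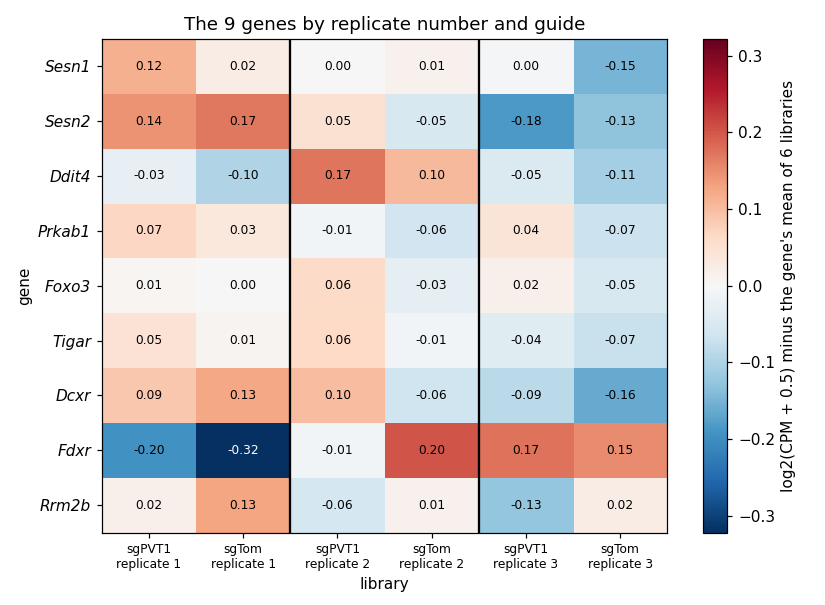
Each cell gives log2(CPM + 0.5) of a gene (row) in a library (column) minus that gene's mean over 6 libraries, red above and blue below the mean, with libraries of equal replicate number side by side, sgPVT1 before sgTom. Fdxr is blue in replicate 1 (-0.20 and -0.32), Sesn2 lies on opposite sides of its mean in replicates 1 and 3, and Foxo3 is pale throughout.

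Markers of another cell type moved with replicate number too. Of 16 macrophage markers 14 were listed. In the F test 12 of these differed between numbers, or 85.7%, against 48.6% of all tested genes. The most abundant, Lyz2, averaged 72.3 ± 58.9 CPM in sgPVT1 cells and 53.4 ± 26.2 CPM in sgTom cells, Cd68 44.0 ± 16.4 and 38.1 ± 4.91 CPM, and Laptm5 19.5 ± 18.8 and 13.6 ± 8.51 CPM (SD, n = 3 each). Of these 3, Laptm5 passed (limma F test, adjusted p = 0.0114), while Lyz2 (0.0515) and Cd68 (0.100) did not. The 14 listed markers summed to 426, 116 and 148 CPM in sgPVT1 libraries 1 to 3 and 267, 122 and 147 CPM in sgTom libraries. Between guides, 13 of the 14 lay above 0 and 1 below, against 49.7% above 0 among all tested genes. Their median log2 fold change was 0.198, and 0 were called in either limma fit. By pair, the median log2 difference was 0.640 in replicate 1, -0.044 in replicate 2 and -0.023 in replicate 3. None of the 14 was at 0 in every library. Epithelial markers, 9 of 10 listed, summed to 57.4 to 101 CPM in sgPVT1 libraries and 79.8 to 95.3 CPM in sgTom libraries, mostly Krt19, with Krt18 at 2.34 ± 1.199 and 2.88 ± 1.56 CPM and Cldn4 at 1.69 ± 1.15 and 1.89 ± 1.39 CPM. The endothelial markers, 7 of 8 listed, summed to 87.4 to 126 CPM and 104 to 127 CPM, mostly Kdr and Flt1, with Vwf at 3.96 ± 1.47 and 3.52 ± 0.510 CPM and Erg at 3.33 ± 0.684 and 3.72 ± 1.19 CPM. Replicate 1 was thus the one with most macrophage RNA. Averaged over guides, 6 of the 9 genes were also highest in replicate 1, Sesn2 and Dcxr among them. Fdxr was lowest in replicate 1, and Ddit4 was highest in replicate 2. The part of macrophages in the differences between replicate numbers was not tested.

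No gene of the other pathway lists was called for the guide. Of 31 mTORC1 genes, 16 were above and 15 below 0, with a median of 0.0011 and 0 called in either limma fit. Rragc and Sec13, parts of the amino acid sensing arm, averaged 186 ± 12.7 and 178 ± 9.80 CPM in sgPVT1 cells against 191 ± 10.3 and 179 ± 13.0 CPM in sgTom cells, and Akt1s1, an mTORC1 inhibitor, averaged 188 ± 6.52 and 186 ± 2.43 CPM. Depdc5, the GATOR1 subunit that silences mTORC1, had the smallest p of that list without the block, with 12.5 ± 0.312 CPM in sgPVT1 cells and 11.7 ± 0.559 CPM in sgTom cells, no overlap, and an adjusted p with the block of 0.817 (limma). In the F test, 13 of these 31 differed between replicate numbers, or 41.9%, against 48.6% of all tested genes.

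Among 9 pentose phosphate and NADPH genes, which Tigar feeds, 3 were above and 6 below 0 with a median of -0.01, and 0 were called. G6pdx, the first enzyme, averaged 167 ± 21.6 CPM in sgPVT1 cells and 168 ± 19.6 CPM in sgTom cells, Pgd 269 ± 28.3 and 272 ± 23.2 CPM, Tkt 224 ± 23.1 and 223 ± 18.6 CPM, and Pgls 49.2 ± 4.52 and 45.6 ± 2.43 CPM (SD, n = 3 each). In the F test of replicate number 7 of these 9 passed, or 77.8%, against 48.6% of all tested genes. The iron-sulfur and mitochondrial P450 list, which Fdxr serves, had 7 above and 6 below 0 of 13 tested, a median of 0.0016 and 0 called. Hspa9, the chaperone of cluster transfer, averaged 430.2 ± 34.9 and 428 ± 33.4 CPM in sgPVT1 and sgTom cells, Glrx5 82.7 ± 5.51 and 84.4 ± 2.84 CPM, and Iscu, the scaffold, 60.7 ± 2.37 and 62.3 ± 3.99 CPM (SD, n = 3 each).

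Genes known as FoxO targets numbered 15, with 5 above and 10 below 0, a median of -0.02 and 0 called. In all 3 pairs 5 of the 15 were lower with sgPVT1, Gabarapl1, Cat and Cited2 among them, and 0 were higher. Among all tested genes 28.8% had the same direction in all 3 pairs. Gabarapl1 of autophagy averaged 162 ± 24.8 CPM in sgPVT1 cells and 177 ± 33.1 CPM in sgTom cells, the catalase gene Cat 101 ± 18.9 and 102 ± 19.1 CPM, and Cited2 103 ± 16.5 and 109 ± 14.2 CPM (SD, n = 3 each). In the F test of replicate number 13 of the 15 passed, or 86.7%, against 48.6% of all tested genes. Genes of the other stimuli known for Ddit4 and Sesn2 gave 7 above and 9 below 0 of 16, a median of -0.01 and 0 called. Atf4 averaged 126 ± 6.63 CPM in sgPVT1 cells and 126 ± 4.81 CPM in sgTom cells, Hif1a 196 ± 31.1 and 202 ± 26.5 CPM, Vegfa 105 ± 13.8 and 105 ± 18.3 CPM, and the glucocorticoid-induced Tsc22d3 9.78 ± 1.15 and 10.7 ± 1.13 CPM.

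To compare levels between genes, CPM were divided by annotated exon length, 1144 bp in Dcxr to 9134 bp in Rrm2b. On this scale Dcxr stood at 139 ± 9.79 CPM per kb in sgPVT1 cells and 133 ± 13.7 CPM per kb in sgTom cells (SD, n = 3 each). Sesn2 at 43.8 ± 5.03 and 43.6 ± 4.83 CPM per kb and Ddit4 at 41.5 ± 3.60 and 39.6 ± 3.40 CPM per kb followed, and their ranges over the 6 libraries overlapped. Foxo3 came next at 14.6 ± 0.303 and 14.1 ± 0.249 CPM per kb, then Tigar at 9.68 ± 0.374 and 9.36 ± 0.281 CPM per kb and Prkab1 at 9.05 ± 0.241 and 8.64 ± 0.351 CPM per kb, which overlapped each other. Fdxr stood at 6.94 ± 0.911 and 7.09 ± 1.37 CPM per kb. Sesn1 at 3.06 ± 0.153 and 2.91 ± 0.200 CPM per kb and Rrm2b at 2.80 ± 0.140 and 3.03 ± 0.135 CPM per kb were lowest and overlapped. The range from Rrm2b to Dcxr was 46.6-fold in the mean over the 6 libraries. Of 8 neighbouring pairs in this order, 3 overlapped. Exon length counts every annotated isoform, so genes with long unused exons come out too low.

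**Figure D4:**
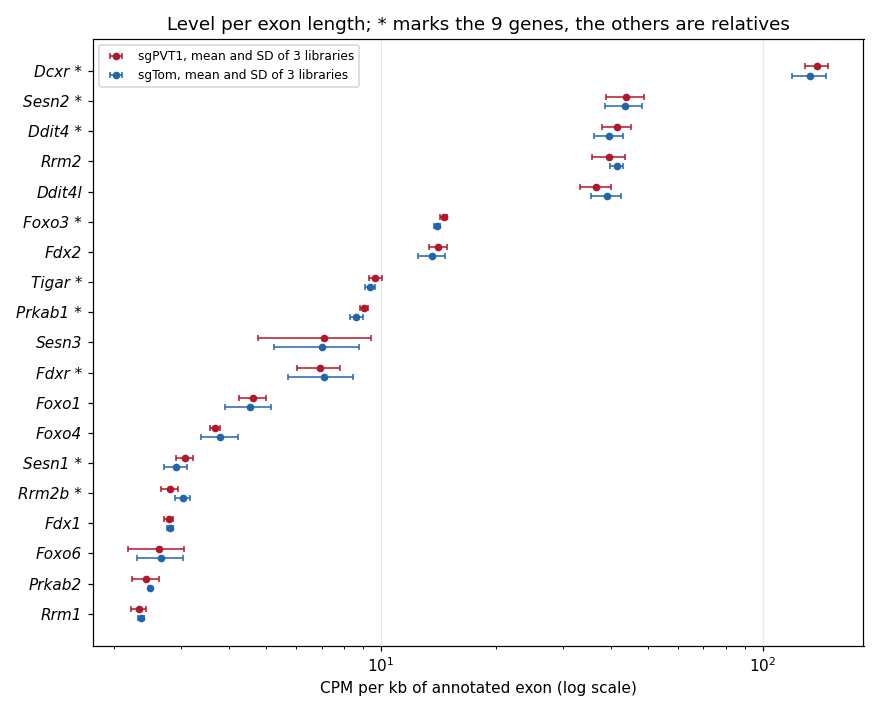
Mean and SD of CPM per kb of annotated exon on a log scale (horizontal axis) in 3 sgPVT1 libraries (red, above) and 3 sgTom libraries (blue, below) for the 9 genes, marked with an asterisk, and a choice of their paralogues and partners, in order of level. Dcxr is the highest of the genes drawn, Sesn2 and Ddit4 lie close to Rrm2 and Ddit4l, and red and blue points of a gene lie nearly on top of each other.

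Set beside their paralogues per kb, Rrm2b at 2.80 ± 0.140 CPM per kb in sgPVT1 cells and 3.03 ± 0.135 CPM per kb in sgTom cells was below Rrm2 at 39.6 ± 3.93 and 41.5 ± 1.61 CPM per kb in every library, while Rrm1 stood at 2.32 ± 0.108 and 2.36 ± 0.0399 CPM per kb. Of all 29 relatives Akr1a1 was the highest, at 223 ± 15.1 CPM per kb in sgPVT1 cells and 225 ± 13.7 CPM per kb in sgTom cells, above Dcxr. Ddit4l at 36.7 ± 3.35 and 39.1 ± 3.58 CPM per kb was near Ddit4. Prkab2 at 2.43 ± 0.200 and 2.49 ± 0.0166 CPM per kb was below Prkab1, and Foxo1 at 4.63 ± 0.377 and 4.54 ± 0.631 CPM per kb was below Foxo3. Of the 29 relatives, 28 passed the filter and 0 were called in either limma fit, with 9 above and 19 below 0 and a median of -0.01. Fbp1 did not pass, at 0.196, 0.304 and 0.22 CPM in sgPVT1 cells and 0.242, 0.375 and 0.133 CPM in sgTom cells.

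For each of the 9, the tested gene averaging 5 CPM or more with the most similar course over the 6 libraries was found, by the root mean square difference of centred log2(CPM + 0.5). It was Alkbh5 for Sesn1 (0.0198), Zfp839 for Sesn2 (0.0151), Rps14 for Ddit4 (0.0198), Pelp1 for Prkab1 (0.0156), Nfic for Foxo3 (0.00754), Gm21092 for Tigar (0.0113), Ndst2 for Dcxr (0.0186), Samd10 for Fdxr (0.0199) and Bnip3l for Rrm2b (0.0197). None of the nearest genes was another of the 9. With 10398 genes compared over 6 libraries some near match is found for any course, so these are descriptions of these libraries.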

How the data were processed

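Polyadenylated RNA went into strand-specific libraries, per the labels' protocols. The submitters' processing notes name build mm10, HTSeq (0.6.1), TopHat2 (2.0.14), edgeR (3.22.3) and StringTie (1.2.4), without role, order or strand setting. The deposited values used are CPM per gene and library, made by the authors with edgeR over a scaled library size (sums of 989489 to 1011369), and the authors' deposited log2 fold change, p-value and false discovery rate for the guide. Column names tie the CPM to guide and replicate number. The 6 per-sample columns of pseudo-counts were not used, and 2 entries that name no gene (ambiguous reads, 0.543% to 1.58% of a library, and reads outside genes, 8.06% to 8.94%) were left out.

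Each CPM divided by the worth of 1 read was whole within 0.01 reads, and the recovered reads gave the depth. limma 3.58.1 (trend, robust) was run on log2(CPM + 0.5) for the 14440 genes that reached 0.5 CPM in 3 or more libraries, at a Benjamini-Hochberg adjusted p of 0.05, and was tested on simulated data. Deviations from group means correlated at 0.869, 0.739 and 0.817 across genes for libraries of equal number and at most at 0.203 otherwise, so the numbers pair the libraries, and values with replicate number as a block stand beside the main ones. The series' text calls the replicates biological. Replicate number was tested by an F test in the fit with guide and number. Single genes had exact permutation and sign flip tests, two-sided, with smallest p of 0.1 and 0.25. edgeR 4.0.16 quasi-likelihood and DESeq2 1.42.0 on the recovered reads, other scalings, filters and pseudocounts, and leaving out libraries were alternatives. Counting errors cover counting only.

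The 9 genes and the gene lists were chosen with earlier results of these data known. Named beside them are Pvt1, Myc, Trp53, Cdkn1a and Mdm2, paralogues and partner subunits, and the 3 most abundant genes of each other list with the one of smallest p, of which 1 is not reported here. Cyp24a1, Zbtb16, Aif1, Cd74, Krt8 and Cdh5 were not analysed here. Positions are from GENCODE M21 and promoters from RefSeq (GRCm38.p6), with none used for Rrm2b.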

Additional observations from a re-analysis of the deposited data

How the results depend on the processing

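None of the 9 genes was called for the guide in the 25 alternatives run for each, including edgeR, DESeq2, other scalings, filters and pseudocounts, the fits with the replicate block and each library left out. The lowest adjusted p of a member was 0.355, for Rrm2b with the block and without replicate 2. Of 225 log2 fold changes recomputed, 215 kept their sign. The other 10 were of Sesn2, Fdxr and Ddit4 and came from leaving out libraries. Over these leave-outs Sesn2 ran from -0.064 to 0.10, Fdxr from -0.19 to 0.075 and Ddit4 from -0.0021 to 0.14. With the block and without replicate 2, Sesn2 was at -0.041 and Fdxr at 0.075. Dcxr ran from 0.0028 to 0.15, Sesn1 from 0.017 to 0.12, Prkab1 from 0.043 to 0.098 and Tigar from 0.023 to 0.079, all above 0. Rrm2b stayed between -0.15 and -0.07 and Foxo3 between 0.04 and 0.08. The replicate block (2 degrees of freedom among libraries) changed no call of a member, and moved the count over all genes to 5, against 0 without it. By limma without trend the block called 0 genes, Pvt1, Myc and S100a4 included. With the block and 1 replicate pair left out, that count was 8, 160 and 9. The number of members that differ between replicate numbers was 2 in place of 4 by limma without trend, where Fdxr (adjusted p = 0.053) and Dcxr (0.114) were lost. It was 3 without any single replicate. The cause was not tested. Of 300 list medians recomputed, 251 moved by less than the spread between replicates and 49 by more, among them that of the 9 genes in 3 leave-outs (0.023 to 0.079). With 3 libraries a guide, a single gene cannot reach 0.05 in an exact test. A difference whose interval includes 0 cannot be told from 0. This held for the 9 genes in both fits, except for Rrm2b with the block, whose adjusted p was 0.738 (limma).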
